A study of Mus musculus with 6 samples.

Results

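The genes described here are 32 that make, regulate or export cholesterol and fatty acids. They comprise 18 enzymes of sterol synthesis, 5 regulators of the SREBP transcription factors, 7 enzymes of fatty acid synthesis and 2 cholesterol exporters. Members were chosen by gene symbol from pathway knowledge, and their probes were found on the arrays through the RefSeq accession of each probe. All 32 of the 20145 genes named on the array had at least 1 probe, and 31 were bright enough to be tested, among 22293 features tested in all. Messenger RNA came from the heart ventricle of male mice of strain C57bl/6j that were 11 to 12 weeks old, with 1 one-colour Agilent array for each of 6 mice. The 3 Tead1 icKO mice were Tead1F/F with Myh6-CreER, a Cre recombinase that tamoxifen activates and that the Myh6 promoter directs to cardiomyocytes, and the 3 control mice carried Tead1 flox alleles. Tamoxifen was given to both groups. No Cre is named for the controls in the labels, so loss of Tead1 and presence of active Cre cannot be told apart. Tead1 encodes a DNA-binding partner of the coactivators YAP and TAZ.

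Cholesterol is built from acetyl-CoA through mevalonate, isoprenoid phosphates and squalene, and then through lanosterol and a series of sterols. SREBP2, the product of Srebf2, drives the genes of this route when membrane sterol is low, and SREBP1, from Srebf1, acts more on fatty acid synthesis. Both are held in the endoplasmic reticulum by INSIG proteins and carried to the Golgi for cleavage by SCAP. Surplus cholesterol leaves cells through ABCA1 and ABCG1, whose genes respond to the oxysterol receptors LXR. The adult heart burns fatty acids rather than making them, and takes much of its cholesterol from lipoproteins.

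The share of probes well above background was 47.9% to 50.9% per array, with 0 saturated spots, and the number of arrays limits the precision. Values are log2 signals relative to the 75th percentile of the same array, so 0 stands for that percentile and negative values lie below it. Levels of different genes come from different probes and are not compared. Of all features tested, 44.8% differed between icKO and control at an adjusted p under 0.05, 16.0% upward in icKO and 28.7% downward (limma fit, p adjusted over all features by Benjamini-Hochberg). Of all calls 35.8% were higher with this scaling; the share was 45.9% under quantile, 54.6% under median and 81.0% under spike-in scaling. The difference of the median feature was -0.14, to which median scaling added 0.16 and spike-in scaling 0.44. The Tead1 probe itself differed by -0.40 ± 0.11 (SE, adjusted p = 0.0300). Scaling to the median (-0.24, adjusted p = 0.186) or to spike-in probes (0.04, adjusted p = 0.834) ended that call. Neither unfiltered probes (adjusted p = 0.122) nor a block for slide row (-0.38, adjusted p = 0.0632) or replicate (adjusted p = 0.0510) kept it, and it ended when icKO replicate 2 (-0.36) or 3 (-0.36) or control replicate 1 (-0.35) or 3 (-0.38) was left out. Where the probe lies relative to the deleted part is not known here.

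Of the 31 members tested, 12 were called (38.7%, against 44.8% of all features), 5 higher and 7 lower in icKO. The share of the whole set was thus no larger than the background, and the direction differed by pathway. All 7 that fell were sterol synthesis enzymes, while the 5 that rose were 3 fatty acid synthesis enzymes and 2 SREBP regulators, and neither exporter was called. The 3 icKO arrays lay wholly above the 3 controls for 5 members and wholly below them for 9, together 14 of 31, against 21.6%, 37.7% and together 59.3% of all features. Under spike-in scaling 11 members rose and 1 fell (35.5% and 3.23%), against 32.2% and 7.54% of all features under that scaling. Without control replicate 1 or 2 the count that rose was 3 (9.68%), against 13.5% and 12.5% of all features in those fits. Without control replicate 3 the count that fell was 4 (12.9%), against 21.2% of all features. Fdft1, Acaca, Scap and Scd1 were the 4 members called in each of the 18 other settings tried.

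**Figure D1:**
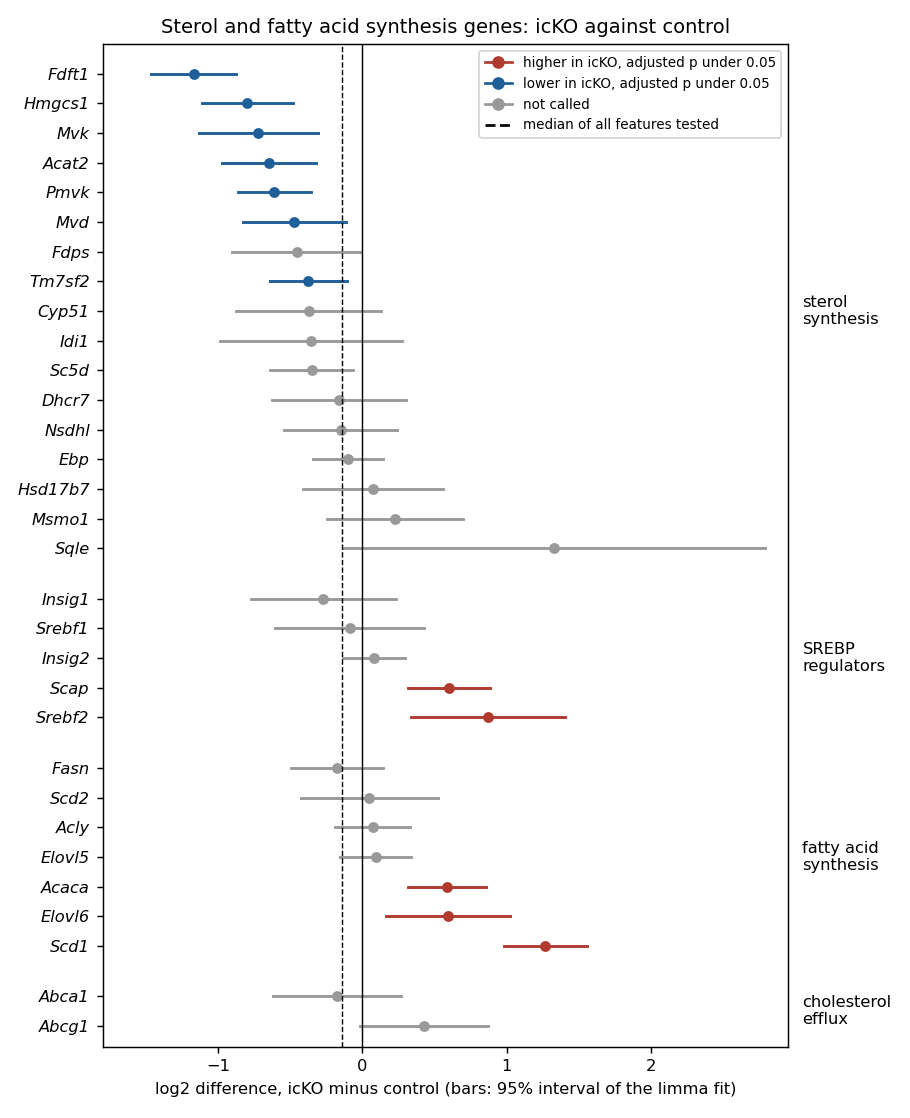
Log2 difference, icKO minus control, of the 31 members tested (points) with the 95% interval of the limma fit (bars), grouped by pathway. The dashed line marks the median of all features at -0.14. Sterol synthesis enzymes extend to -1.17 at Fdft1, and fatty acid synthesis enzymes to 1.27 at Scd1. Sqle has the widest interval.

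Of the 17 sterol synthesis enzymes tested, 10 were not called, 3 of them with a positive difference (Sqle, Msmo1 and Hsd17b7), and Acat2, Hmgcs1, Mvk, Pmvk, Mvd, Fdft1 and Tm7sf2 were lower in icKO hearts. The count that fell was thus 7 (41.2%, against 28.7% of all features), and 0 rose (against 16.0%). The median difference of the 17 was -0.37, which is -0.23 relative to the median of all features. Under median scaling 3 fell, against 16.4% of all features, and under spike-in scaling 1 fell and 2 rose, against 7.54% and 32.2%. Without control replicate 3, 4 fell, against 21.2% of all features. These are bulk ventricles, where fewer cells of a type and less RNA per cell cannot be told apart.

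Hmgcs1 encodes the cytosolic HMG-CoA synthase, which makes HMG-CoA for the mevalonate route. Its log2 signal was 2.43, 2.59 and 2.83 on the 3 icKO arrays, against 3.31, 3.46 and 3.48 on the 3 controls. All icKO arrays lay below all controls, at 57.5% of the control level, and the difference was -0.80 ± 0.13 (SE, n = 3 and 3, adjusted p = 0.00446). Under spike-in scaling the difference was -0.36 (adjusted p = 0.172).

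Acat2, the cytosolic acetoacetyl-CoA thiolase that supplies HMG-CoA synthase, stood at -2.30, -2.16 and -2.33 in icKO, against -1.41, -1.85 and -1.59 in controls. The groups did not overlap, and the difference was -0.64 ± 0.13 (adjusted p = 0.0104). Median scaling (-0.49, adjusted p = 0.0638) and spike-in probes (-0.20, adjusted p = 0.250) ended that call.

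HMG-CoA reductase, which turns HMG-CoA into mevalonate, is not among the members. The 3 steps after it turn mevalonate into isopentenyl diphosphate, and their kinases Mvk and Pmvk and decarboxylase Mvd were all called lower. Mvk gave 1.23, 1.66 and 1.87 in icKO, against 2.29, 2.26 and 2.37 in controls, a difference of -0.72 ± 0.17 (adjusted p = 0.0165). Pmvk gave 2.61, 2.66 and 2.88 in icKO, against 3.33 on each control, a difference of -0.61 ± 0.10 (adjusted p = 0.00528). In both genes every icKO array lay below every control, and icKO replicate 3 lay nearest to them. Their other kept probes differed by -0.60 for Mvk and -0.66 for Pmvk.

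Mvd stood at -0.54, -0.95 and -0.53 in icKO, against -0.34, -0.09 and -0.19 in controls. Its difference of -0.47 ± 0.15 (adjusted p = 0.0416) was the least secure of these, since leaving out any 1 of the 6 arrays ended the call (-0.54 to -0.33, adjusted p between 0.0504 and 0.116). The Mvk call ended when control replicate 3 was left out (-0.69, adjusted p = 0.0539), when probes were unfiltered (adjusted p = 0.0662), and when arrays were scaled to the median (-0.56, adjusted p = 0.0695) or to spike-in probes (-0.28, adjusted p = 0.287). Pmvk was lost only with spike-in scaling among the 18 settings (-0.17, adjusted p = 0.445). The Mvd difference was -0.03 under that scaling (adjusted p = 0.927), -0.31 under median scaling (adjusted p = 0.103) and -0.43 under quantile scaling (adjusted p = 0.0549).

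Isopentenyl diphosphate is isomerised by the product of Idi1 and joined into farnesyl diphosphate by that of Fdps. Idi1 differed by -0.35 ± 0.26 (adjusted p = 0.305), with icKO arrays at -0.88, -0.57 and 0.12, against -0.19, -0.19 and 0.12 in controls. Fdps stood at 1.86, 2.25 and 2.59 in icKO, against 2.71, 2.67 and 2.69 in controls. Its groups did not overlap, but the icKO arrays spread widely (SD 0.36, against 0.02 in controls), and the difference of -0.45 ± 0.19 did not pass (adjusted p = 0.0892). Without icKO replicate 3 both were called lower, Idi1 at -0.64 (adjusted p = 0.0353) and Fdps at -0.63 (adjusted p = 0.0266).

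Fdft1 encodes squalene synthase, the enzyme that sends farnesyl diphosphate into sterols. It had the largest fall of the 31 members, with 0.87, 0.53 and 0.81 in icKO, against 1.82, 1.998 and 1.89 in controls. The icKO mean was 44.5% of the control level, and the difference was -1.17 ± 0.12 (adjusted p = 0.000977). Of all features tested, 5.92% had a lower difference. The call held in all 18 other settings, with differences between -1.24 and -0.73.

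Enzymes after squalene gave no common direction. Sqle, squalene epoxidase, which adds oxygen to squalene, stood at -2.02, 0.55 and -0.24 in icKO, against -1.91, -1.85 and -1.94 in controls. The signal on icKO replicate 1 was thus at the control level, and on replicates 2 and 3 far above it. The difference was 1.33 ± 0.61 (adjusted p = 0.118), and without icKO replicate 1 it was 2.06 (adjusted p = 0.00363). Scaling to spike-in probes called it higher too (1.77, adjusted p = 0.0341). Sqle had 1 probe, so no other probe tests this spread.

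Of the enzymes that turn lanosterol into cholesterol, Tm7sf2, a sterol reductase, was the 1 called lower. It stood at -0.48, -0.45 and -0.64 in icKO, against -0.26, -0.17 and -0.01 in controls, a difference of -0.37 ± 0.11 (adjusted p = 0.0342). Without control replicate 1 the call held (adjusted p = 0.0428), and leaving out each of the other 5 arrays ended it (adjusted p between 0.0564 and 0.106). Median scaling (-0.22, adjusted p = 0.259), unfiltered probes (adjusted p = 0.136) and a block for slide row (-0.35, adjusted p = 0.0724) ended it, and scaling to spike-in probes turned its sign (0.07, adjusted p = 0.778). Its dimmer probe, well above background on 2 of 3 icKO arrays, differed by -0.78.

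The remaining late enzymes were not called. Sc5d, a sterol desaturase, stood at 0.71, 0.80 and 1.05 in icKO, against 1.21, 1.14 and 1.26 in controls, a difference of -0.35 ± 0.12 (adjusted p = 0.0513), and was called lower without icKO replicate 3 (-0.45, adjusted p = 0.0293), with a robust variance trend (adjusted p = 0.0362) and among probes well above background on all 6 arrays (adjusted p = 0.0445). Cyp51, the lanosterol demethylase, differed by -0.37 ± 0.21 (adjusted p = 0.189), and normexp called it lower (-0.35, adjusted p = 0.0365). Dhcr7, which makes the last reduction to cholesterol, differed by -0.16, Nsdhl by -0.15 and Ebp by -0.10, while Hsd17b7 differed by 0.07 and Msmo1 by 0.23. Normexp called Dhcr7 lower (-0.31, adjusted p = 0.0459), and spike-in scaling called Msmo1 higher (0.67, adjusted p = 0.0403). In the limma fit above the adjusted p of these 5 lay between 0.380 and 0.785. Their 95% intervals ran from -0.63 for Dhcr7 to 0.70 for Msmo1. Lss, lanosterol synthase, was not tested, since its probe was well above background on 2 of 3 icKO arrays and on 0 of 3 controls.

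Set along the route, 6 of the 8 member enzymes up to squalene fell (against 28.7% of all features). Of these 8, 7 lay wholly below the controls (against 37.7%). The median difference of the 8 was -0.63, and every difference was negative. Of the 9 tested after squalene, 1 fell, with a median of -0.15. This division was made after the values were seen, so it is a description and was not tested. The mean of the 8 early enzymes, relative to the control mean, stood at -0.81, -0.72 and -0.44 on the icKO arrays, against -0.03, -0.02 and 0.05 on the controls. Among all 17 enzymes icKO replicate 1 was the lowest icKO array for 12, and replicate 3 the highest for 9.

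**Figure D2:**
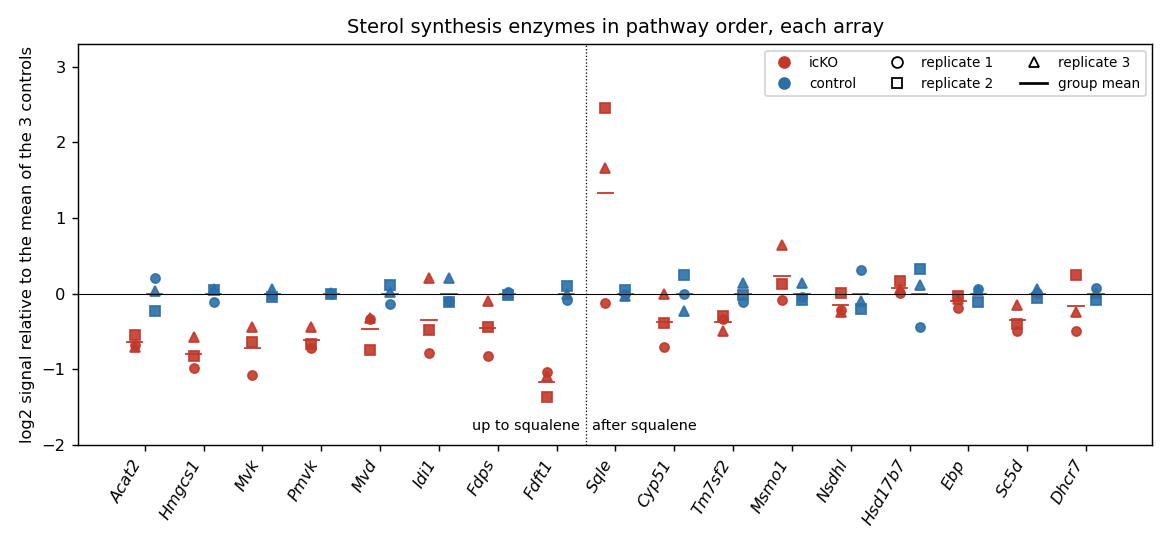
Log2 signal of 17 sterol synthesis enzymes on each array, relative to the mean of the 3 controls, in the order of the pathway; icKO (red) stands left of control (blue), marker shapes give the replicate and bars the group mean. The early enzymes lie below 0 in icKO, apart from Idi1 on replicate 3, and Sqle is high on icKO replicates 2 and 3 only.

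Promoter sequence was examined because these genes share regulators. RefSeq promoter windows (GRCm38.p6, from 250 bases before to 50 after each annotated start) were found for 26 of the 32 members, among 27025 genes. Fdft1, Fdps, Sqle, Scd1, Scd2 and Abcg1 had no window, so the motif results do not cover them. The motifs were searched on both strands, the sterol regulatory element TCACNCCAC, its core CACCCCAC, which overlaps it, the NF-Y box CCAAT, the E-box CACGTG, the TEAD motif GGAATG and a direct repeat bound by LXR. NF-Y is a factor that acts beside SREBP at sterol genes. A CCAAT box stood in a window of 14 of 15 sterol synthesis genes, 21 of 26 members and 41.1% of all genes (37.4% of all windows). It was found in 5 of the 6 sterol genes that fell and in 8 of the 8 that were not called. The E-box stood in 7 of 26 members and 8.09% of all genes (7.15% of all windows). It was found in 0 of the 6 sterol genes that fell and in 3 of the 8 that were not called. The 9-letter sterol element stood in Hmgcs1 alone (1.44% of all genes, 1.24% of all windows). Its core stood in Hmgcs1 and Acat2 (3.3% of all genes, 2.87% of all windows). The TEAD motif was found in 0 of the 26 members (16.6% of all genes, 14.7% of all windows). The LXR repeat was found in 0 of 26 (0.0148% of all genes, 0.0152% of all windows). For both motifs this says only that their letters are absent from these windows.
Windows are shown, the 250 bases before the start, for a pair of genes that fell (Hmgcs1 and Mvk) and a pair that were not called (Msmo1 and Hsd17b7). Capitals mark CCAAT on either strand and, in Hmgcs1, the sterol element.
Hmgcs1, GRCm38.p6 chr13:119690101-119690350, plus strand: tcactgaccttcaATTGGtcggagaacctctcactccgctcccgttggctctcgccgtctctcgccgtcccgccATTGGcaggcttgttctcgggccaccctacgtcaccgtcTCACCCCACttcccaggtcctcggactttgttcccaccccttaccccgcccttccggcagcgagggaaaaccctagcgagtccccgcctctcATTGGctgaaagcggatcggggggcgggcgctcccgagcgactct
Mvk, GRCm38.p6 chr5:114444019-114444268, plus strand: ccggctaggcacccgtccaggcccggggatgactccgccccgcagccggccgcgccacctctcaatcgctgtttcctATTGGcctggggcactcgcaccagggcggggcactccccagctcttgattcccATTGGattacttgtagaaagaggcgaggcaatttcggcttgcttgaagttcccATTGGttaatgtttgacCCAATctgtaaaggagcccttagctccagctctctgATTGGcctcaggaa
Msmo1, GRCm38.p6 chr8:64733579-64733828, minus strand: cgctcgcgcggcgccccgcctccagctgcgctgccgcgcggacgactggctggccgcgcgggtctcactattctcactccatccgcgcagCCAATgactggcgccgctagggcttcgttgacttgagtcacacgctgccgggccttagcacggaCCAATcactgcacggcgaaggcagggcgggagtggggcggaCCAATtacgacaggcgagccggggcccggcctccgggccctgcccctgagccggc
Hsd17b7, GRCm38.p6 chr1:169969206-169969455, minus strand: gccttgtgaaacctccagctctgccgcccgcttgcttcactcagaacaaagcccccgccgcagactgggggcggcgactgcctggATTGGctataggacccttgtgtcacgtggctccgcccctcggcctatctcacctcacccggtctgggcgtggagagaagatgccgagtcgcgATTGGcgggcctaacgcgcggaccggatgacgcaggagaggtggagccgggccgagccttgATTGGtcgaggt
Hmgcs1, Msmo1 and Hsd17b7 each show 3 boxes and Mvk shows 5, while the differences of these genes were -0.80, 0.23, 0.07 and -0.72 in the order Hmgcs1, Msmo1, Hsd17b7 and Mvk.

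Of the SREBP regulators, 2 of 5 rose (40.0%, against 16.0% of all features) and 0 fell (against 28.7%), and the median difference was 0.08. Srebf2, the gene of the SREBP that drives sterol synthesis, stood at -1.89, -1.65 and -1.06 in icKO, against -2.55, -2.37 and -2.30 in controls. The groups did not overlap, and the difference was 0.87 ± 0.22 (adjusted p = 0.0203). It thus ran opposite to the 7 sterol enzymes that fell. Normexp (0.33, adjusted p = 0.0731) and unfiltered probes (adjusted p = 0.0734) ended the call, as did the fits without control replicate 1 (0.80, adjusted p = 0.0641) or 2 (0.89, adjusted p = 0.0502). Its other probe was not well above background on any of the 6 arrays, so it was not tested, and differed by 0.63.

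Scap, whose protein escorts SREBP to the Golgi, also rose. Its signal was 3.71, 3.43 and 3.76 in icKO, against 2.997, 3.08 and 3.02 in controls. Every icKO array exceeded every control, and the difference of 0.60 ± 0.12 (adjusted p = 0.00821) was called in all 18 other settings. Insig1, itself a target of SREBP, stood at -1.56, -0.92 and -1.16 in icKO, against -0.88, -1.25 and -0.71 in controls. The groups overlapped, and the difference was -0.27 ± 0.21 (adjusted p = 0.330). Insig2 differed by 0.08 ± 0.09 (adjusted p = 0.492), with a dimmer probe at -0.14, and scaling to spike-in probes called it higher (0.52, adjusted p = 0.0377). Srebf1 differed by -0.09 ± 0.21 (adjusted p = 0.766), with icKO arrays at -1.51, -1.02 and -1.44, against -1.61, -0.93 and -1.18 in controls.

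Of the 7 fatty acid synthesis genes tested, 4 were not called, and Scd1, Acaca and Elovl6 were higher in icKO hearts. The count that rose was 3 (42.9%, against 16.0% of all features) and 0 fell (against 28.7%), with a median difference of 0.09, or 0.23 relative to all features. Under spike-in scaling 5 rose, against 32.2% of all features. The gap between the medians of sterol and fatty acid synthesis genes was -0.46, and it ranged from -0.65 to -0.36 over the 18 other settings. Median and spike-in scaling add 1 constant per array and so cannot move it. A robust variance trend and the replicate block leave these differences as they are, so they cannot move it either. It also stayed at -0.46 with the other filters, with outlier spots kept and with the mean of a gene's probes.

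Scd1 encodes a stearoyl-CoA desaturase, which places the first double bond in saturated fatty acids. It stood at 0.48, 0.67 and 0.44 in icKO, against -0.71, -0.61 and -0.90 in controls. The lowest icKO array exceeded the highest control by more than the range of either group, and the mean was 2.41-fold higher in icKO (log2 difference 1.27 ± 0.12, adjusted p = 0.000711). Its paralog Scd2 gave 1.39, 1.50 and 1.42 in icKO, against 1.35, 1.02 and 1.80 in controls, and differed by 0.05 ± 0.20 (95% interval -0.43 to 0.53, adjusted p = 0.856).

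The other paralogs ran the opposite way to Scd1. Scd4, a desaturase gene known from mouse heart, stood at -3.28, -3.54 and -3.39 in icKO, against -0.42, -0.03 and -0.06 in controls. Its difference was -3.23 ± 0.14 (adjusted p = 0.000102). The call held in all 18 other settings, but the difference ranged from -3.36 to -1.71. The Scd4 signal in icKO was dim, since the lowest signal well above background on those arrays was -4.35, -4.13 and -3.68. Scd3, named after its value was seen, differed by -0.59 ± 0.16 (adjusted p = 0.0276), which ended when arrays were scaled to the median (-0.43, adjusted p = 0.120) or to spike-in probes (-0.15, adjusted p = 0.565), when probes were unfiltered (adjusted p = 0.0996), and when slide row (-0.51, adjusted p = 0.0513) or replicate (adjusted p = 0.0720) was a block. It ended too when icKO replicate 1 (-0.58) or 3 (-0.52) or control replicate 3 (-0.43) was left out. The 4 genes are close in sequence, and cross-hybridisation between their probes was not tested.

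Acaca, acetyl-CoA carboxylase 1, makes the malonyl-CoA from which fatty acids are built. It stood at 2.64, 2.33 and 2.53 in icKO, against 1.98, 1.88 and 1.87 in controls, a difference of 0.59 ± 0.11 (adjusted p = 0.00741) that was called in all 18 other settings. Its other kept probe, well above background on 1 of 3 controls, differed by 0.84. Elovl6, which elongates palmitate to stearate, stood at -2.61, -2.14 and -2.62 in icKO, against -3.29, -2.94 and -2.91 in controls, a difference of 0.59 ± 0.18 (adjusted p = 0.0362). Normexp background correction (0.06, adjusted p = 0.622), unfiltered probes (adjusted p = 0.120) and a robust variance trend (adjusted p = 0.0653) ended that call. So did leaving out icKO replicate 2 (0.43) or 3 (0.67) or any 1 control (0.47, 0.64 and 0.66).

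The enzymes between these steps were not called. Fasn, the fatty acid synthase itself, stood at -2.54, -2.51 and -2.90 in icKO, against -2.40, -2.53 and -2.49 in controls, a difference of -0.17 ± 0.13 (95% interval -0.49 to 0.14, adjusted p = 0.319). Acly, which makes cytosolic acetyl-CoA from citrate for both routes, differed by 0.07 ± 0.11 (95% interval -0.19 to 0.33, adjusted p = 0.610). Its dimmer probe, well above background on 2 of 3 arrays of each group, was not tested and differed by -0.39. Elovl5, which elongates polyunsaturated fatty acids, differed by 0.09 ± 0.10 (adjusted p = 0.492). Scaled to spike-in probes, Acly (0.51, adjusted p = 0.0365) and Elovl5 (0.53, adjusted p = 0.0385) were called higher.

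**Figure D3:**
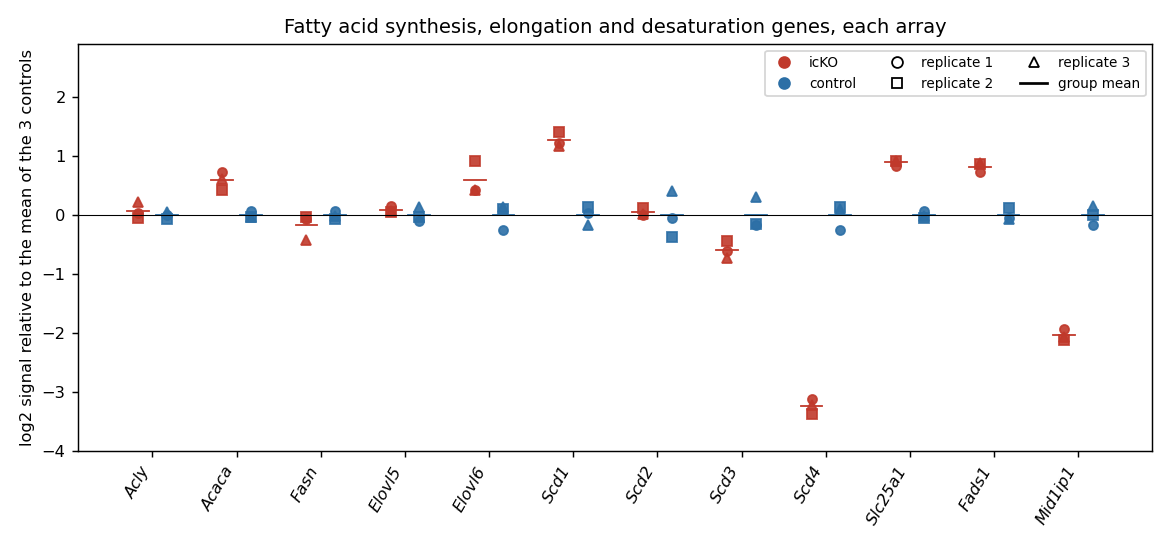
Log2 signal on each array, relative to the mean of the 3 controls, for the 7 fatty acid synthesis members and for Scd3, Scd4, Slc25a1, Fads1 and Mid1ip1; icKO (red) stands left of control (blue), marker shapes give the replicate and bars the group mean. Scd1 lies above 1 on all icKO arrays, Scd2 near 0, and Scd4 more than 3 below the control mean.

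The 2 cholesterol exporters were not called. Abca1, which loads cholesterol onto apolipoprotein A-I, stood at 1.40, 1.15 and 0.69 in icKO, against 1.23, 1.26 and 1.28 in controls, a difference of -0.17 ± 0.18 (95% interval -0.62 to 0.27, adjusted p = 0.468). The controls were nearly equal and the icKO arrays lay on both sides of them. Abcg1, which passes cholesterol to mature HDL, stood at 0.20, 0.52 and 0.05 in icKO, against -0.10, -0.47 and 0.06 in controls. Its difference of 0.43 ± 0.18 did not pass (95% interval -0.01 to 0.87, adjusted p = 0.101), but it was called higher with a block for slide row (0.57, adjusted p = 0.0134), with normexp background correction (0.35, adjusted p = 0.0460) and under spike-in scaling (0.87, adjusted p = 0.00533).

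**Figure D4:**
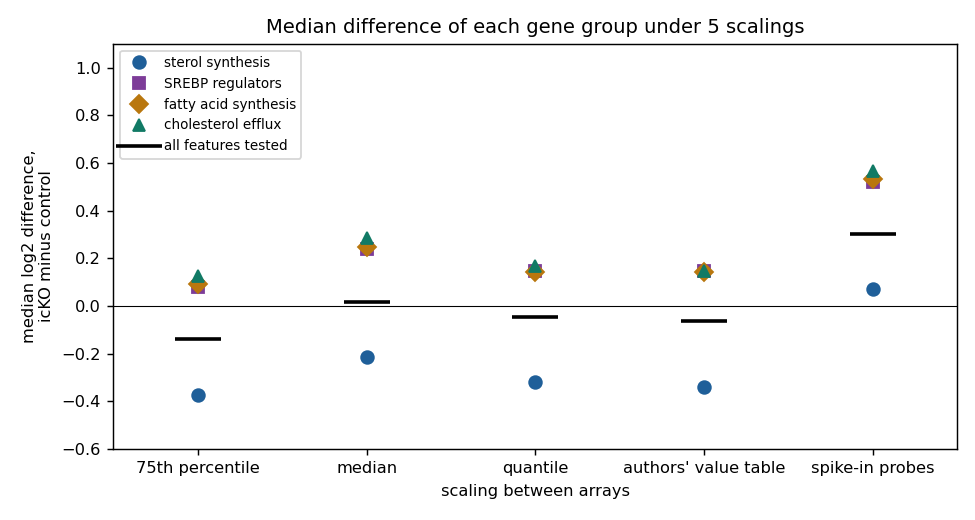
Median log2 difference, icKO minus control, of each gene group (points) and of all features tested (black bars) under 5 ways of scaling between arrays. Median and spike-in scaling add 1 constant per array, so relative to all features they leave the groups where the 75th percentile put them, and only the position relative to 0 moves. Under quantile scaling and in the authors' deposited table, which could move them, the sterol median was -0.27 and -0.28 relative to all features.

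Further genes of the same pathways came from lists drawn for this purpose. Of 12 other sterol enzymes and SREBP processing genes tested, of 13 listed, 3 rose (25.0%, against 16.0% of all features) and 2 fell (16.7%, against 28.7%). With spike-in scaling 7 rose and 1 fell, against 32.2% and 7.54% of all features. Ufd1, a cofactor in the removal of endoplasmic reticulum proteins, differed by 0.44 ± 0.13 (adjusted p = 0.0333), which ended when any 1 control (0.45, 0.41 and 0.45) or icKO replicate 3 (0.47) was left out, with unfiltered probes (adjusted p = 0.125), and with slide row (0.40, adjusted p = 0.0704) or replicate (adjusted p = 0.0578) as a block. Rnf139, a ubiquitin ligase of the endoplasmic reticulum, fell by 0.61 ± 0.10 (adjusted p = 0.00509), though by -0.17 under spike-in scaling (adjusted p = 0.398). Idi2, another isopentenyl diphosphate isomerase gene, was at least 1.75-fold dimmer in icKO, where 0 of 3 arrays had it well above background (control mean -3.24). Its probe passed the filter through the controls alone, so only this bound is given. Among probes well above background on all 6 arrays, 11 genes of this list were tested, 4 rose and 1 fell.

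Of 18 other fatty acid synthesis, desaturation and elongation genes tested, of 24 listed, 11 fell (61.1%, against 28.7% of all features) and 3 rose (16.7%, against 16.0%). Under spike-in scaling 4 fell and 4 rose, against 7.54% and 32.2% of all features. Under median scaling 9 fell and 3 rose, against 16.4% and 19.7%. Their median difference was -0.58. Besides Scd4, Mid1ip1, whose protein promotes the activity of acetyl-CoA carboxylase, fell by 2.04 ± 0.12 (adjusted p = 0.000186), with 3.72, 3.54 and 3.58 in icKO, against 5.48, 5.66 and 5.81 in controls. Slc25a1, the mitochondrial citrate carrier, rose by 0.89 ± 0.09 (adjusted p = 0.000848), and Fads1, a desaturase of polyunsaturated fatty acids, by 0.82 ± 0.10 (adjusted p = 0.00166). The 7 core enzymes above and these 18 genes thus gave different balances of calls, a difference that was not tested. The 18 are not all synthesis genes, since a gene of malonyl-CoA breakdown is among those that fell. Their count is therefore not one of fatty acid synthesis alone.

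Of 19 other genes of cholesterol uptake, export and storage tested, of 22 listed, 5 rose (26.3%, against 16.0% of all features) and 4 fell (21.1%, against 28.7%). With spike-in scaling 9 rose and 1 fell, against 32.2% and 7.54% of all features. Some probes of this list passed the filter through the icKO arrays alone. Among probes well above background on all 6 arrays, 16 genes of this list were tested. Of these, 4 rose and 4 fell, against 16.0% and 29.4% of all features. Lrp1, a lipoprotein receptor, rose by 1.43 ± 0.14 (adjusted p = 0.000819), and Npc2, which hands cholesterol out of lysosomes, by 0.75 ± 0.09 (adjusted p = 0.00131). Pltp, a phospholipid transfer protein, fell by 1.63 ± 0.15 (adjusted p = 0.000705), and the receptor gene Vldlr by 0.86 ± 0.12 (adjusted p = 0.00269). Scaled to spike-in probes, Vldlr differed by -0.42 (adjusted p = 0.103).

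Markers of other cells also moved between the groups, and their part in the results above was not tested. Of all features, 16.0% rose and 28.7% fell, or 32.2% and 7.54% with spike-in scaling. Of 9 macrophage markers tested, 7 rose and 0 fell, with list means of 2.25 to 2.67 in icKO and 0.75 to 1.34 in controls. Of 9 fibroblast markers, 7 rose and 0 fell, with list means of 4.06 to 4.49 in icKO and 2.42 to 3.20 in controls. Of 7 cardiomyocyte markers 5 fell and 0 rose, at 8.38 to 8.57 in icKO and 8.91 to 9.05 in controls, or 2 fell and 1 rose with spike-in scaling. Endothelial markers gave 1 rise and 2 falls of 6, and smooth muscle markers 1 rise and 0 falls of 4. Of 8 adipocyte markers, 7 were not tested, and of their 8 probes 7 were well above background on 0 arrays and the other, for Cfd, on 1. Adipoq, Lep, Plin1, Retn, Cidec and Ucp1 were among those on 0 arrays, and the 1 tested, Cidea, rose by 0.50 ± 0.12 (adjusted p = 0.0156).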

How the data were processed

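Cy3-labelled RNA of each mouse was read on 1 array. Values are the deposited spot intensity on a linear scale, background-subtracted within each array and not scaled between arrays, from Agilent Feature Extraction 11.0.1.1 per the file headers, although version 9.1 is named in the submitters' processing notes. All arrays lay on 1 slide, with icKO in slide columns 2, 3 and 3 and controls in columns 1, 1 and 2, so position and group can hardly be told apart. Signals were log2-transformed, less the 75th percentile of the array. Spots marked as outliers were dropped, and the rest averaged per probe. Probes were kept where well above background on all 3 arrays of a group (26169 of 55681). They were named by RefSeq accession (GRCm38.p6 table, names only), and where a gene had several kept probes the brightest was used. Groups were compared with limma 3.58.1 in R 4.3.3, with group as the only term and Benjamini-Hochberg adjustment over all features. The steps were tested on simulated data. For a probe dim on all arrays of a group only a bound is given, the lowest signal well above background or its own signal, given as "at least". Members, lists and tests were chosen with earlier results of these data known. All members are named, and from each further list up to 2 genes in each direction with the smallest p. A gene that this rule names is not reported here. Other settings were normexp, 3 other scalings, the authors' deposited value table (intensity), other filters, probe rules, variance models and blocks, and each array left out. Normexp used median spot signals in place of the planned mean signals. The deposited value table correlated at 0.9995 or above with the scanner log2 values; its column medians were 18.4 to 18.5, its scale linear and uncentred, and the sources used here do not give its scaling method. Replicate numbers did not pair the arrays. The p-values set each difference against the spread between these samples, with the variance of each feature drawn toward that of all features.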

Additional observations from a re-analysis of the deposited data

How the results depend on the processing

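The 31 tested members gave 558 values over 18 other settings, of which 479 kept their direction and their side of the threshold, 40 lost a call, 16 gained one and 23 changed sign. In 1 of the sign changes, Tm7sf2 with spike-in scaling (0.0676), the gene had been called. Spike-in scaling called 7176 features higher and 1680 lower, with 11 members higher and 1 lower, 2 sterol synthesis enzymes higher and 1 lower, 5 fatty acid synthesis genes higher and 1 exporter higher. Spike-in signal relative to the 75th percentile was 0.94, 1.02 and 0.97 on the icKO arrays, against 1.61, 1.20 and 1.46 on the controls. Under that scaling signs also changed for Idi1 (0.0869), Cyp51 (0.0691), Nsdhl (0.29), Ebp (0.34), Sc5d (0.0895), Dhcr7 (0.28), Srebf1 (0.36), Insig1 (0.17), Fasn (0.27) and Abca1 (0.27). Median scaling called 3659 features lower and 3 members lower, all 3 sterol synthesis enzymes, and changed the sign of Nsdhl (0.00656), Ebp (0.0580) and Srebf1 (0.0704). With no filter on dim probes more features were tested, 2126 were called higher and 3996 lower, and 3 members were higher and 4 lower, the 4 being sterol enzymes, with 1 SREBP regulator higher. Normexp, run on median spot signals, called 1 SREBP regulator and 1 exporter higher, and slide row as a block called 1 exporter higher. The mean of a gene's probes turned Insig2 to -0.0282. Leaving out 1 array gave 3 to 6 members higher and 4 to 8 lower. Of all features, 12.5% to 14.4% were higher and 21.2% to 26.3% lower in those fits. Of sterol synthesis enzymes 4 to 8 were lower and 0 to 1 higher, and 1 to 2 SREBP regulators were higher. Signs changed over these fits for Dhcr7 (-0.37 to 0.00266), Srebf1 (-0.27 to 0.0675), Acly (-0.00550 to 0.13), Abca1 (-0.33 to 0.0197), Nsdhl (-0.25 to 0.00401), Hsd17b7 (-0.14 to 0.24) and Scd2 (-0.13 to 0.25). Replicate numbers did not pair the arrays, with correlations of same-numbered deviations of -0.05, -0.13 and 0.00. With the replicate block 2799 features were higher and 5085 lower, with 5 members higher and 5 lower, and Mvd and Tm7sf2 lost their calls (adjusted p = 0.0961 and 0.0945). The cause of these changes was not tested. A slide block was not run, since 1 slide held all arrays.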
